A study of Mus musculus with 6 samples.

Results

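The genes described here are the 10 MHC class I antigen presentation and immunoproteasome genes B2m, H2-K1, H2-D1, Tap1, Tap2, Tapbp, Psme1, Psme2, Psmb8 and Psmb9, taken by symbol from the 22482 genes of the deposited mRNA table. All 10 were found and all 10 were expressed highly enough to be tested, as were 11612 genes in all. RNA was measured in vascular smooth muscle cells, the cell type that contracts in the arterial wall, from the aorta of C57BL/6 mice. The 3 libraries labelled Myocd knockdown came from cells that the labels say were given an adenovirus against Myocd, and the 3 libraries labelled control from cells given a negative control adenovirus, each for 48 h in DMEM medium with 10% fetal bovine serum. In the design text of the series the controls are wildtype cells, which leaves uncertain if they received virus; a response to virus then cannot be told apart from one to Myocd. RNA was freed of ribosomal RNA and made into stranded total RNA libraries, and the labels name no separate cultures or animals behind them. The p-values therefore reflect only how libraries spread, which can be technical.

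MHC class I molecules show fragments of a cell's own proteins to CD8+ T cells. The proteasome cuts proteins into peptides, the transporter TAP carries the peptides into the endoplasmic reticulum, and a loading complex that includes tapasin fits them onto a heavy chain paired with beta-2-microglobulin. Interferons raise the transcription of most of these genes in many cell types, among them the inducible catalytic subunits that turn the standard proteasome into the immunoproteasome. In smooth muscle, as in nearly all nucleated cells, class I is present without such a stimulus.

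Myocd itself, which encodes a coactivator of smooth muscle genes, did not follow the labels. In the libraries labelled knockdown its level was 131.7, 130.1 and 145.5 FPKM (fragments scaled by transcript length and by library size), against 0.0355, 0 and 0.125 FPKM in those labelled control, so libraries are named by their labels throughout. Labels exchanged between the groups and a virus that raised Myocd cannot be told apart here. A positive fold change below means a higher level in the libraries that held more Myocd RNA, and the sign relative to Myocd loss would be the opposite. Recovered fragments ranged from 7528170 to 9793781 per library. The summed level of 10 smooth muscle markers was 601 to 627 FPKM in the libraries labelled knockdown and 293 to 334 FPKM in those labelled control, with 4 of 8 tested markers called higher and 0 lower. Most of that difference was Acta2, at 340.2 ± 7.16 FPKM under the knockdown label and 67.2 ± 4.16 FPKM under the control label. Tagln was at 7.52 ± 1.77 FPKM under the knockdown label and 0.637 ± 0.887 FPKM under the control label. It did not pass in limma (adjusted p = 0.0555), although edgeR called it higher (adjusted p = 0.00255). Smtn, Mylk and Tpm2 did not pass either. Cnn1 (at most 0.353 FPKM) and Myh11 (at most 0.0846 FPKM) were too low to test. Macrophage markers, of which 3 of 9 could be tested and 0 were called, summed to 20.6 to 24.7 FPKM under the knockdown label and 22.4 to 26.7 FPKM under the control label, mostly Cd14, with Tyrobp at 0 in all 6 libraries. Dendritic cell markers summed to at most 0.361 FPKM under the knockdown label and 0.617 FPKM under the control label, with 6 of 8 genes at 0. T and NK cell markers summed to at most 0.151 FPKM under the knockdown label and 0.130 FPKM under the control label, with 6 of 8 at 0. Endothelial markers summed to 1.32 to 2.38 FPKM under the knockdown label and 0.640 to 1.09 FPKM under the control label. Of these 9 markers limma tested 1, Vwf, and called it higher, while edgeR called 0. Fibroblast markers summed to 78.1 to 91.0 FPKM under the knockdown label and 81.6 to 94.6 FPKM under the control label. The part of the smooth muscle and endothelial markers in the differences below was not tested. In bulk RNA, fewer cells of a type and less RNA per cell cannot be told apart.

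The libraries labelled knockdown held more of 3 of the 10 transcripts: B2m, the invariant light chain, by 1.28-fold, Tapbp, which encodes tapasin, by 1.17-fold, and Psme1, the alpha subunit of the PA28 proteasome activator, by 1.43-fold in mean FPKM. None of the 10 was lower, and the other 7 did not pass the threshold, an adjusted p of 0.05 in limma with Benjamini-Hochberg adjustment over all tested genes. Among all tested genes 1.83% were called higher and 1.61% lower, together 3.44% or 400 genes. With each library scaled to its median the split over all genes was 257 higher and 148 lower, against 213 and 187 without that scaling. On recovered fragments, edgeR also called 3 of the 10 higher and 0 lower, where 5.45% of all genes tested by edgeR were called higher, and DESeq2 called 3 higher, where 5.23% of the 7603 genes with a DESeq2 adjusted p were called higher. Without adjustment, 5 of the 10 had a limma p under 0.05, beside 22.4% of all tested genes. The median log2 fold change of the 10 was 0.15 in FPKM, beside -0.01 over all tested genes, and the fold change was positive for 7 of the 10, beside 47.8% of all tested genes. FPKM did not overlap between the groups for 5 of the 10, all of them higher in the libraries labelled knockdown, where 13.3% of all tested genes lay apart in that direction and 15.6% in the other. The summed FPKM of the 10 was 1467, 1555 and 1501 in the libraries labelled knockdown, against 1244, 1245 and 1209 in those labelled control, and no gene added more to the difference than B2m.

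**Figure D1:**
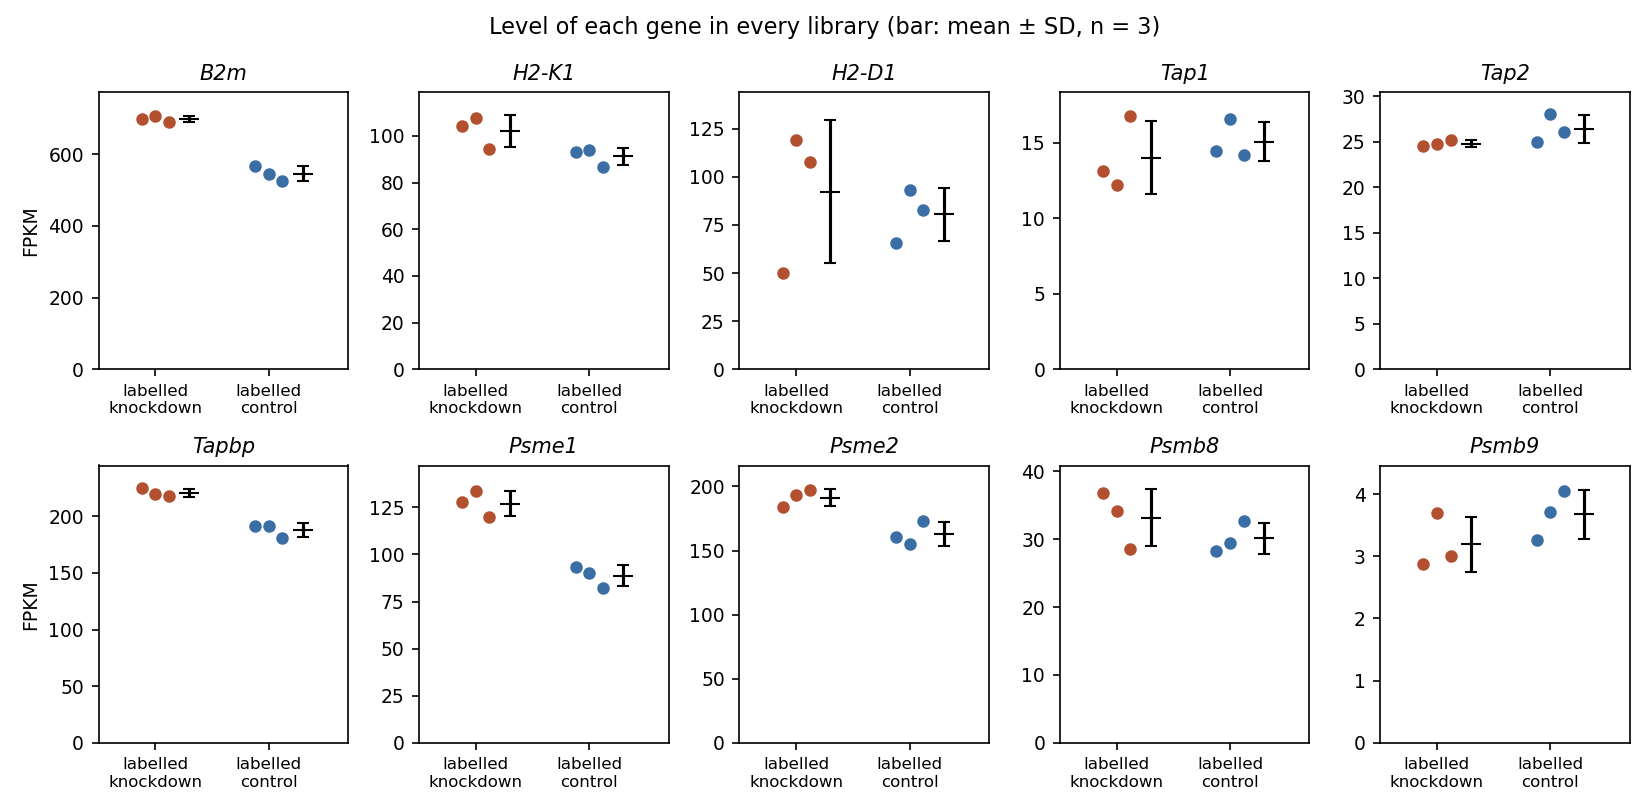
FPKM of each of the 10 genes in every library, with the libraries labelled knockdown on the left and those labelled control on the right of each panel, and the mean ± SD of 3 libraries beside the points. B2m, H2-K1, Tapbp, Psme1 and Psme2 lie apart between the groups, and the other 5 overlap.

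Per length of transcript, the 10 genes spanned a wide range of levels. B2m averaged 622 FPKM over the 6 libraries, followed by Tapbp at 204, Psme2 at 177, Psme1 at 108, H2-K1 at 96.7 and H2-D1 at 86.4 FPKM. Psmb8 averaged 31.7 FPKM, Tap2 25.6, Tap1 14.6 and Psmb9 3.43 FPKM. The ranges over 6 libraries overlapped between Tapbp and Psme2 and among Psme1, H2-K1 and H2-D1, and lay apart between the other neighbours in this order. B2m lay above every other gene of the group in all 6 libraries and Psmb9 below every other.

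The light chain of class I was the most abundant of the 10 and was higher in the libraries labelled knockdown. B2m measured 699.3, 707.2 and 689.8 FPKM in the libraries labelled knockdown, against 568.1, 544.4 and 525.7 FPKM in those labelled control. The lowest library labelled knockdown was above the highest labelled control. Mean B2m was 698.8 ± 8.70 FPKM under the knockdown label and 546.1 ± 21.2 FPKM under the control label (SD, n = 3 each), with a log2 fold change of 0.36 (SE 0.04, limma adjusted p = 0.00934). On recovered fragments edgeR gave 0.37 (adjusted p = 4.89e-05). A noncoding transcript that shares exon sequence with B2m on its strand, BC002288, had 5.94, 5.91 and 5.15 FPKM under the knockdown label and 8.09, 5.86 and 6.94 FPKM under the control label, which overlapped. The limma call was lost without the library labelled knockdown 2 (adjusted p = 0.0516), without the library labelled control 2 (0.0539) and in limma without an intensity trend (0.0558), with the direction kept.

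The classical heavy chains H2-K1 and H2-D1, which bind the peptide and are what T cell receptors recognise, did not pass. H2-K1 measured 104.3, 107.6 and 94.4 FPKM in the libraries labelled knockdown, against 93.1, 93.8 and 86.9 FPKM in those labelled control. The groups did not overlap, but the gap between the nearest libraries was under 1 FPKM. The log2 fold change was 0.16 (95% interval 0.02 to 0.30, limma adjusted p = 0.181); the edgeR value was 0.17 (adjusted p = 0.0520). H2-D1 had 49.97, 119.2 and 107.7 FPKM in the libraries labelled knockdown, against 65.8, 93.1 and 82.6 FPKM in those labelled control. Its lowest and its highest library both carried the knockdown label, so the groups overlapped fully. The log2 fold change was 0.11 with a 95% interval of -0.63 to 0.85 (limma adjusted p = 0.859), the widest interval of the 10.

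The low H2-D1 value in the library labelled knockdown 1 was also seen before scaling by length. H2-D1 had 882, 1648 and 1367 recovered fragments in the libraries labelled knockdown and 1053, 1100 and 1244 in those labelled control. Scaled to fragments per 1000000 of the library, this was 96.7, 184.4 and 181.6 under the knockdown label, against 107.5, 118.2 and 133.7 under the control label, so the library labelled knockdown 1 was the lowest of all 6 and the other two labelled knockdown were the highest. The table of long noncoding RNA holds a transcript named H2-L (uc029thj.1) that overlaps an H2-D1 exon on the same strand. It was at 16.0 FPKM from 33.1 fragments in the library labelled knockdown 1 and at 0 in the other 5 libraries. The table places H2-D1 in a locus on chromosome 17 from 35240167 to 35430055, listed together with Ddx39b, H2-Q1, H2-Q2, H2-Q4 and H2-Q6. Class I heavy chain genes are near copies of one another and the sharing of reads among them could split counts, so H2-D1 and H2-K1 values are uncertain in that respect. The part of the H2-L transcript in the low H2-D1 value was not tested. Without the library labelled knockdown 1 the log2 fold change of H2-D1 was 0.51 and did not pass (adjusted p at or above 0.144 in each of the 6 fits without 1 library). The summed FPKM of the 14 H2 class I genes was 403, 473 and 457 in the libraries labelled knockdown, against 378, 416 and 414 in those labelled control, which overlapped. Without H2-D1 the sums were 353.3, 353.3 and 349.3 FPKM under the knockdown label, against 312.4, 322.9 and 331.2 FPKM under the control label, with no overlap. Among single tested genes, 13.3% lay apart in that direction. Of the 13 genes in that sum, H2-Q2, H2-Q6, H2-Q7, H2-Q10 and H2-M5 were too low to test. None of the others was called by limma, and H2-Q4 had the higher mean under the control label.

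**Figure D2:**
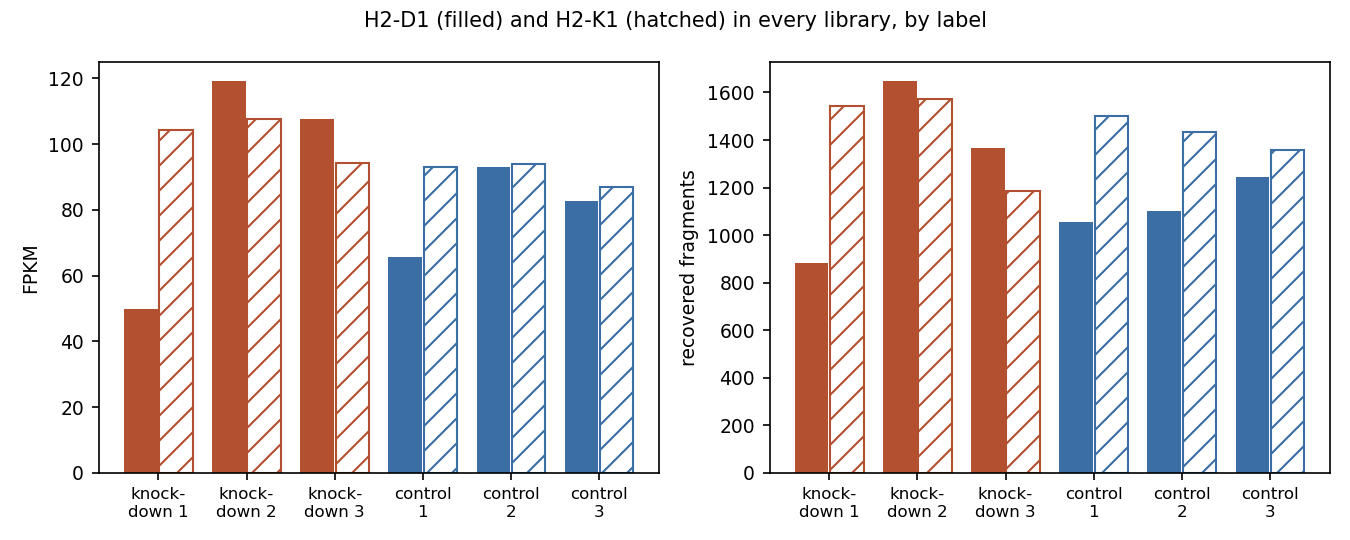
H2-D1 (filled bars) and H2-K1 (hatched bars) in every library, libraries labelled knockdown first, as FPKM on the left and recovered fragments on the right, both axes starting at 0. H2-D1 is at 49.97 FPKM and 882 fragments in the library labelled knockdown 1, below every other library, while H2-K1 in the same library is at 104.3 FPKM.

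Of the 10 genes, 9 have a RefSeq promoter entry, and Tap2 has none. The upstream sequences of B2m, H2-K1 and H2-D1 are shown because they alone of the 9 carry both an IRF core and an NF-kB consensus match. The windows searched are the 250 bases before the start listed first in the RefSeq promoter table (GRCm38.p6), on the gene's strand, and those of B2m at chr2:122147437-122147686 (+) and H2-D1 at chr17:35262844-35263093 (+) are given whole. For H2-K1, on the minus strand, that start lies inside the RefSeq gene span, which reaches 34000619, so its window overlaps the gene body and positions count from that inner start. Of H2-K1, only the stretch with the matches at chr17:34000430-34000458 (-) is given, with the like stretch of H2-D1 at chr17:35262923-35262951 (+) under it. Capitals mark the IRF core AANNGAAA, read on either strand, and the NF-kB consensus.
B2m: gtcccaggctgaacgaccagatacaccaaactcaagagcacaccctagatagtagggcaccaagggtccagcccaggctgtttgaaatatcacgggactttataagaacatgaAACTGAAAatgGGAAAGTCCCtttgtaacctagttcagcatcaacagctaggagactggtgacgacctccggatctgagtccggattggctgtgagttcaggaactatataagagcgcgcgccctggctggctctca
H2-D1: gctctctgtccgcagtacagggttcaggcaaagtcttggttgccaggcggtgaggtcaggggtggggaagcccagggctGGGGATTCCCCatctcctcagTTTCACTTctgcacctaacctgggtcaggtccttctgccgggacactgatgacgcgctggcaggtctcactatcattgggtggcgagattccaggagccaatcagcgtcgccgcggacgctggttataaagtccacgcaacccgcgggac
H2-K1 stretch: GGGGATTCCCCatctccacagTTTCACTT
H2-D1 stretch: GGGGATTCCCCatctcctcagTTTCACTT
In B2m the IRF core lay from -137 to -130 and the NF-kB match from -126 to -117 relative to the start, without overlapping. In H2-K1 a stretch from -111 to -83 held a pair of overlapping NF-kB matches and then the IRF core on the opposite strand. The stretch in H2-D1 from -171 to -143 had the same layout, and 28 of its 29 bases were identical to those of H2-K1. Of 27025 promoters of the same length, 21.6% held the IRF core and 7.01% the NF-kB consensus. A match describes letters and not binding, and these 3 promoters belong to 1 gene that was called and 2 that were not.

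Of the loading machinery, Tapbp was higher in the libraries labelled knockdown, while the transporter genes Tap1 and Tap2 did not pass. Tapasin tethers empty heavy chains to TAP and edits their peptides. Tapbp measured 224.6, 219.4 and 218.4 FPKM in the libraries labelled knockdown, against 191.4, 191.5 and 181.2 FPKM in those labelled control. Every library labelled knockdown was above every library labelled control. Tapbp had a log2 fold change of 0.23 (SE 0.04), past the threshold in limma (adjusted p = 0.0281). The value from edgeR was 0.26 (adjusted p = 3.80e-04). An antisense transcript, AK140218, had 1.92, 2.48 and 2.41 FPKM under the knockdown label and 1.62, 3.07 and 1.29 FPKM under the control label; the use of strand in counting is not stated, and without it reads of the pair cannot be told apart. The limma call was lost whichever 1 of the 6 libraries was left out (adjusted p between 0.0593 and 0.0984), without an intensity trend (0.101) and under quantile normalization (0.0731), always with the same direction.

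Tap1 and Tap2, which together form the TAP peptide pump, did not pass and had negative fold changes. Tap1 had 13.2, 12.2 and 16.8 FPKM in the libraries labelled knockdown, against 14.5, 16.6 and 14.2 FPKM in those labelled control. The groups overlapped, with the library labelled knockdown 3 the highest of the 6. The log2 fold change was -0.11 (95% interval -0.42 to 0.19, limma adjusted p = 0.638). The recovered fragments of Tap1 were 390, 363 and 308 in the libraries labelled knockdown, against 458, 477 and 461 in those labelled control, and edgeR gave -0.23 (adjusted p = 0.0602). In the library labelled knockdown 3 Tap1 had 18.4 fragments per FPKM, against 28.8 to 32.5 in the other 5 libraries. Its FPKM there was thus higher than its fragments alone would give. FPKM is also scaled by library size, and this library had the fewest recovered fragments (7528170), which by itself lowers the ratio. Tap2 had 24.6 fragments per FPKM there, against 29.8 to 33.3 in the other 5 libraries. The part of the Tap1 ratio in the smaller FPKM difference of Tap1 was not tested. Tap2 measured 24.5, 24.7 and 25.2 FPKM in the libraries labelled knockdown, against 25.03, 28.1 and 26.1 FPKM in those labelled control. These overlapped, and the log2 fold change was -0.09 (95% interval -0.23 to 0.06, limma adjusted p = 0.438).

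The promoter of Tapbp is shown because the gene was called while none of the 4 motifs searched was found in it (RefSeq GRCm38.p6, chr17:33919228-33919477, + strand, no capitals).
Tapbp: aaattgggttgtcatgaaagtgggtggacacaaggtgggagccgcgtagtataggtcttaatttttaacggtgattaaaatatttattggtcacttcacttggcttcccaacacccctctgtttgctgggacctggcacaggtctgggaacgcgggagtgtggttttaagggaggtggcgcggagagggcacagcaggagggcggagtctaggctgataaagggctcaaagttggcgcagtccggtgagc
The other motifs searched on both strands were the GAS element TTCNNNGAA, present in 7.18% of all promoters of this length, and the CArG box, bound by serum response factor, the partner of myocardin, and present in 1.4%. The CArG box was found in 0 of the 9 promoters, and these windows say nothing of sites elsewhere.

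PA28 is a ring that caps the proteasome and opens its gate, and it is built from the alpha subunit encoded by Psme1 and the beta subunit encoded by Psme2. Psme1 had 127.6, 133.5 and 119.9 FPKM in the libraries labelled knockdown, against 93.3, 90.2 and 82.4 FPKM in those labelled control. All 3 libraries labelled knockdown lay above all 3 labelled control, and the fold change was the largest of the 10, although B2m lay further apart in FPKM. Mean Psme1 was 127.0 ± 6.78 FPKM under the knockdown label and 88.6 ± 5.64 FPKM under the control label (SD, n = 3 each), with a log2 fold change of 0.52 (SE 0.06, limma adjusted p = 0.0106). On recovered fragments edgeR gave 0.42 (adjusted p = 1.95e-04). The limma call was lost without the library labelled knockdown 1 (adjusted p = 0.0597), the library labelled knockdown 2 (0.0556) or the library labelled control 2 (0.0539), with the direction kept.

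Psme2 measured 183.9, 193.3 and 196.9 FPKM in the libraries labelled knockdown, against 160.9, 154.8 and 173.1 FPKM in those labelled control. The groups did not overlap, yet the log2 fold change of 0.23 (SE 0.05) did not pass in limma (adjusted p = 0.0611). Median scaling (adjusted p = 0.0433) and library weights (0.0353) carried it past the threshold, while edgeR on recovered fragments gave 0.10 (adjusted p = 0.251). The recovered fragments of Psme2 were 1022, 970.0 and 877 in the libraries labelled knockdown, against 998, 951 and 1064 in those labelled control. They are not scaled by library size, and every library labelled control held more recovered fragments in all than any labelled knockdown. Psme3, which encodes the gamma activator of the nucleus, was at 60.9 ± 8.08 FPKM under the knockdown label and 52.4 ± 3.24 FPKM under the control label (SD, n = 3 each) and did not pass (limma adjusted p = 0.260). Psme1 and Psme2 lie on chromosome 14 with 12607 bases between their starts, on opposite strands. The promoter of Psme1 is shown as that of the gene with the largest fold change of the 10, and none of the 4 motifs was found in it (RefSeq GRCm38.p6, chr14:55578244-55578493, + strand).
Psme1: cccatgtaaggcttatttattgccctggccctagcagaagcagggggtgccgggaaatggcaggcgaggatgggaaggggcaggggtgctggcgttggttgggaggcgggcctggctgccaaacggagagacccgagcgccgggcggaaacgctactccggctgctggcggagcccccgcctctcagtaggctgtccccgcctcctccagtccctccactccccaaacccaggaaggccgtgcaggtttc

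**Figure D3:**
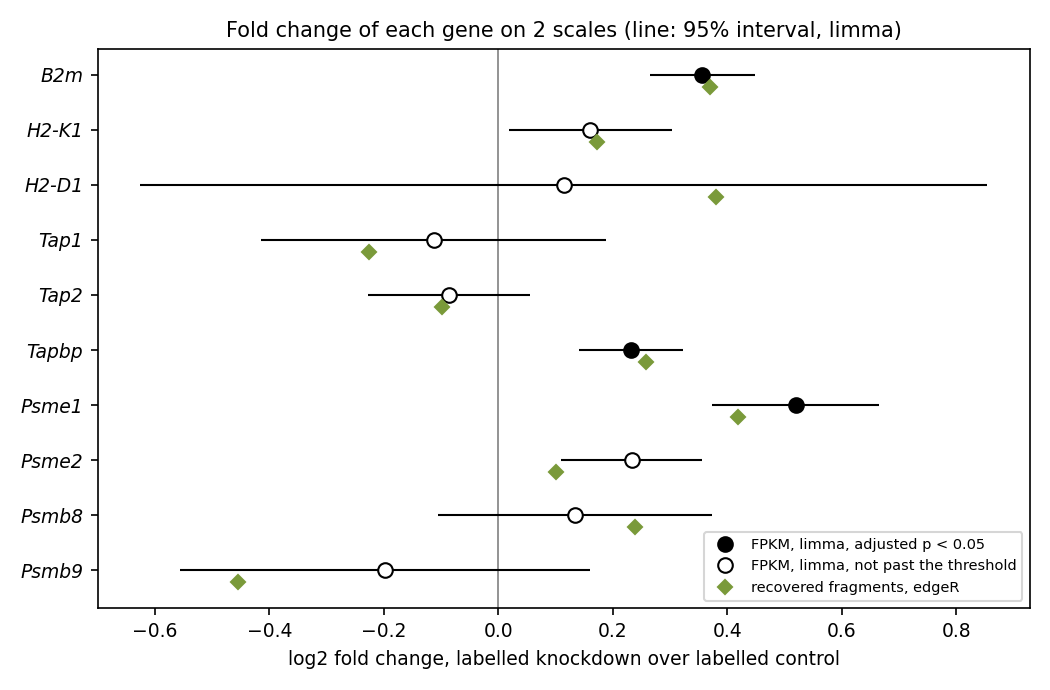
Log2 fold change of each of the 10 genes, libraries labelled knockdown over those labelled control, in FPKM by limma (circles, filled where called, with the 95% interval as a line) and in recovered fragments by edgeR (diamonds). B2m, Tapbp and Psme1 are filled, Tap1, Tap2 and Psmb9 lie below 0 on both scales, and H2-D1 has the widest interval.

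The catalytic subunits of the immunoproteasome did not pass in either direction. Psmb8 encodes the inducible subunit that replaces Psmb5, and Psmb9 the one that replaces Psmb6. Psmb8 had 36.8, 34.1 and 28.6 FPKM in the libraries labelled knockdown, against 28.3, 29.4 and 32.7 FPKM in those labelled control. The groups overlapped, and the log2 fold change was 0.13 (95% interval -0.11 to 0.37, limma adjusted p = 0.479); edgeR gave 0.24 (adjusted p = 0.106). Psmb9 measured 2.88, 3.70 and 3.01 FPKM in the libraries labelled knockdown, against 3.26, 3.71 and 4.04 FPKM in those labelled control. These overlapped too, and rested on 34, 37 and 27 recovered fragments under the knockdown label and 46, 48 and 57 under the control label, which did not overlap. The log2 fold change of Psmb9 was -0.20 in FPKM (95% interval -0.56 to 0.16, limma adjusted p = 0.482) and -0.46 in fragments (edgeR adjusted p = 0.193). Psmb10, the third inducible catalytic subunit, which replaces Psmb7, was at 11.2 ± 1.44 FPKM under the knockdown label and 11.1 ± 1.99 FPKM under the control label (SD, n = 3 each; limma adjusted p = 0.956).

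The standard subunits were Psmb5 at 34.4 ± 2.12 FPKM in the libraries labelled knockdown and 41.9 ± 1.14 FPKM in those labelled control, Psmb6 at 161.1 ± 0.934 FPKM under the knockdown label and 162.5 ± 2.21 FPKM under the control label, and Psmb7 at 81.3 ± 4.22 FPKM under the knockdown label and 71.9 ± 0.920 FPKM under the control label. None of the 3 passed (limma adjusted p = 0.0505 for Psmb5, 0.863 for Psmb6 and 0.0988 for Psmb7), with 2 of them under an unadjusted p of 0.05, although edgeR called Psmb7 higher (adjusted p = 0.0317). The ratio of Psmb8 to Psmb5 in FPKM was 1.003, 1.05 and 0.840 in the libraries labelled knockdown, against 0.664, 0.690 and 0.805 in those labelled control. These ratios did not overlap, where 13.3% of single tested genes lay apart in that direction. The difference in mean log2 ratio was 0.421, beside limma log2 fold changes of 0.13 for Psmb8 and -0.29 for Psmb5. The larger of these 2 changes was thus that of the standard subunit. An exact two-sided permutation test returned p = 0.1, which 3 against 3 libraries cannot go below, or 0.3 adjusted over the 3 ratios. Psmb9 over Psmb6 was 0.0179, 0.0228 and 0.0188 in the libraries labelled knockdown, against 0.0199, 0.0227 and 0.0253 in those labelled control (exact permutation p = 0.3, adjusted 0.45). Psmb10 over Psmb7 was 0.147, 0.113 and 0.155 under the knockdown label, against 0.125, 0.163 and 0.175 under the control label (exact permutation p = 0.5, adjusted 0.5). These last 2 ratios overlapped between the groups in FPKM. In recovered fragments Psmb9 over Psmb6 did not overlap and was lower under the knockdown label (difference in mean log2 ratio -0.451). Psmb8 over Psmb5 did not overlap there either and was higher (0.51), and Psmb10 over Psmb7 overlapped (-0.138).

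**Figure D4:**
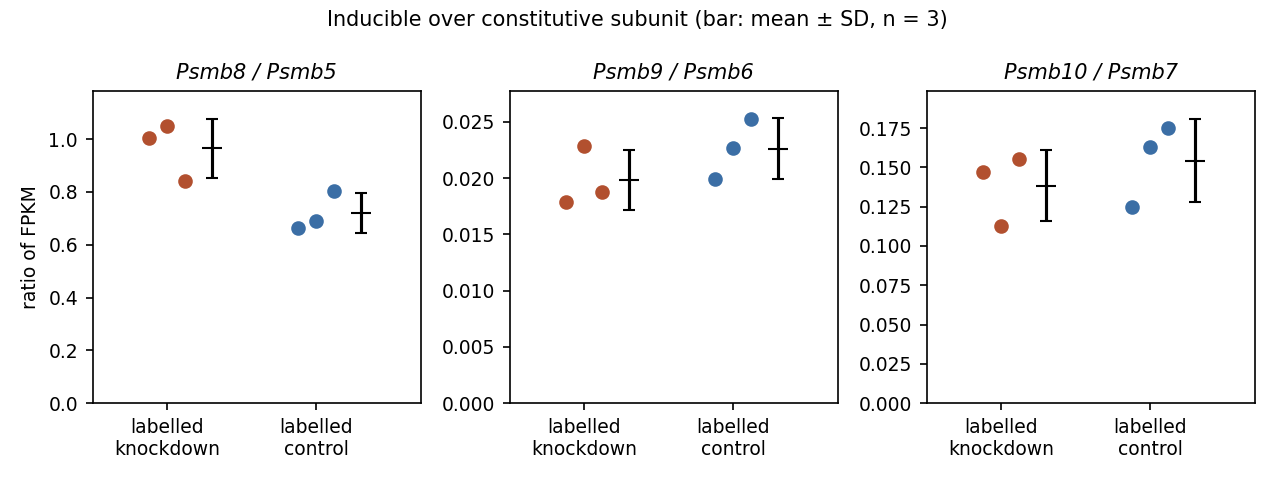
Ratio of the FPKM of each inducible catalytic subunit to that of the standard subunit it replaces, in every library, with the mean ± SD of 3 libraries and each axis starting at 0. Psmb8 over Psmb5 lies between 0.840 and 1.05 in the libraries labelled knockdown and between 0.664 and 0.805 in those labelled control, and the other 2 ratios overlap.

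Of the 10 genes, 7 lie in the MHC region of chromosome 17, and Tap1, Tap2, Psmb8 and Psmb9 form a tight cluster there. In RefSeq (GRCm38.p6) Psmb9 runs from 34182030 to 34187330 on the minus strand and Tap1 from 34187556 to 34197225 on the plus strand, so they face away from each other with 226 bases between their starts. Psmb8 (34198195 to 34201454) and Tap2 (34204479 to 34216321) follow on the plus strand. The deposited table lists Tap1 and Psmb9 in 1 locus and Tap2 and Psmb8 in another. None of these 4 neighbours was called, with log2 fold changes of -0.20 for Psmb9, -0.11 for Tap1, 0.13 for Psmb8 and -0.09 for Tap2. Tapbp (33919478 to 33929290), H2-K1 (33996012 to 34000619) and H2-D1 (35263094 to 35267497) lie outside the cluster on the same chromosome, B2m on chromosome 2 from 122147687 to 122153082. The promoter of Psmb8, at chr17:34197945-34198194 (+ strand, RefSeq GRCm38.p6), is shown because it alone of the 9 held the GAS element, in capitals, from -97 to -89.
Psmb8: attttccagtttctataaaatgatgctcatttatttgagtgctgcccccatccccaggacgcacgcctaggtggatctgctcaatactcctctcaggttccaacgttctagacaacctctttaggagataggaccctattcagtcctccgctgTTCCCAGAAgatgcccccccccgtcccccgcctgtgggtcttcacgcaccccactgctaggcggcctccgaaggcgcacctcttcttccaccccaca

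The rest of the pathway was read from lists grouped by function and chosen with earlier results of these data known. In all, 16 of 152 tested genes on lists outside the 10 were called, or 10.5%, with 10 higher and 6 lower. Over all tested genes the share was 3.44%. Because of how the lists were chosen, the gap between these shares does not test the pathway. Among other class I and class I-like heavy chains 0 of 11 tested genes were called by limma, 1 was under an unadjusted p of 0.05, and edgeR called 1, H2-T22. H2-T22 had 99.1, 96.5 and 102.3 FPKM in the libraries labelled knockdown, against 81.6, 80.4 and 90.5 FPKM in those labelled control (limma adjusted p = 0.0649, edgeR 0.0172). The nonclassical H2-Q4 (38.2 ± 3.12 FPKM under the knockdown label and 42.1 ± 2.75 FPKM under the control label) and H2-M3 (2.30 ± 0.386 FPKM under the knockdown label and 1.80 ± 0.0481 FPKM under the control label) did not pass.

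Of 19 tested genes for peptide trimming, loading and folding in the endoplasmic reticulum, limma called 2 higher and 0 lower. Without adjustment, 13 of the 19 had a limma p under 0.05, beside 22.4% of all tested genes. On recovered fragments edgeR called 8 higher and 2 lower, where it called 9.95% of all genes it tested. Tapbpl, which encodes the tapasin relative TAPBPR, measured 6.47, 6.97 and 7.16 FPKM in the libraries labelled knockdown, against 4.80, 5.19 and 4.57 FPKM in those labelled control. Calr, which encodes the chaperone calreticulin of the loading complex, was at 982.0, 1007 and 1008 FPKM under the knockdown label, against 853.4, 837.5 and 825.1 FPKM under the control label. Neither overlapped between the groups. The log2 fold changes were 0.49 for Tapbpl (SE 0.10, limma adjusted p = 0.0475) and 0.25 for Calr (SE 0.03, adjusted p = 0.0145). The oxidase gene Ero1l was at 309.1 ± 26.8 FPKM under the knockdown label and 379.9 ± 8.71 FPKM under the control label. It did not pass in limma (adjusted p = 0.0545), although edgeR called it lower (adjusted p = 0.00485). Tapbpl lost its call whichever 1 library was left out (adjusted p between 0.104 and 0.135). Calr lost it without the library labelled knockdown 1 (0.0605), the library labelled knockdown 2 (0.0707), the library labelled control 1 (0.0609) or the library labelled control 2 (0.0716).

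Calls in the standard proteasome went both ways, where limma called 3.44% of all tested genes. Of 11 tested core subunits that do not cut, Psma4 alone was called, at 85.5 ± 3.77 FPKM under the knockdown label and 71.7 ± 0.812 FPKM under the control label (SD, n = 3 each; log2 fold change 0.25, limma adjusted p = 0.0350). Of 22 genes of the 19S particle, which feeds tagged proteins into the core, Psmd10 was higher at 24.2 ± 0.832 FPKM under the knockdown label and 18.7 ± 1.15 FPKM under the control label (adjusted p = 0.0346). Psmc2 was lower at 60.5 ± 1.64 FPKM under the knockdown label and 71.6 ± 3.26 FPKM under the control label (adjusted p = 0.0483), and so was Psmd11 at 49.8 ± 1.95 FPKM under the knockdown label and 58.9 ± 1.05 FPKM under the control label (adjusted p = 0.0422). Whichever 1 library was left out, Psma4 (adjusted p between 0.0649 and 0.117), Psmc2 (0.0593 to 0.145) and Psmd11 (0.0860 to 0.123) did not pass. Psmd10 passed only without the library labelled control 3 (0.0439), with adjusted p between 0.0794 and 0.114 in the other 5 fits. On recovered fragments edgeR called 2 of the 19S genes higher and 4 lower. Of the core subunits that do not cut, it called Psma4 alone. Over all genes tested by edgeR the share called was 9.95%. Among 9 other cap and assembly genes 0 were called, by limma or edgeR, and 2 were under an unadjusted p of 0.05. The assembly chaperone genes Psmg3 (4.95 ± 0.770 FPKM under the knockdown label and 6.55 ± 0.709 FPKM under the control label) and Psmg1 (12.6 ± 0.266 FPKM under the knockdown label and 14.9 ± 1.52 FPKM under the control label) had the smallest p among them.

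Among 22 tested regulators of class I transcription, 1 was higher and 1 lower. Irf7, an interferon regulatory factor, had 170.0, 168.7 and 192.9 FPKM in the libraries labelled knockdown, against 115.5, 119.0 and 131.1 FPKM in those labelled control. The groups did not overlap, and the log2 fold change of Irf7 was 0.54 (SE 0.07), past the threshold in limma (adjusted p = 0.0141). Nlrc5, the transactivator of class I genes, was at 3.33, 2.69 and 1.48 FPKM under the knockdown label, against 2.88, 1.57 and 1.91 FPKM under the control label, and did not pass (adjusted p = 0.763). Nfya, a subunit of the promoter-binding factor NF-Y, was at 22.6 ± 1.60 FPKM under the knockdown label and 27.4 ± 0.686 FPKM under the control label and did not pass (adjusted p = 0.0692). Irf7 lost its call without the library labelled knockdown 1 (0.0551), the library labelled knockdown 2 (0.0516), the library labelled control 1 (0.0631) or the library labelled control 2 (0.0706).

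Of 11 tested interferon, receptor and signalling genes, Ifnar2, a chain of the type I interferon receptor, was higher at 22.6 ± 1.34 FPKM under the knockdown label and 18.1 ± 0.495 FPKM under the control label (SD, n = 3 each; log2 fold change 0.32, limma adjusted p = 0.0492). That call was lost whichever 1 library was left out (adjusted p between 0.0669 and 0.143). Jak1 (68.5 ± 2.43 FPKM under the knockdown label and 57.4 ± 4.97 FPKM under the control label) did not pass. Usp18 (59.3 ± 1.73 FPKM under the knockdown label and 67.1 ± 3.22 FPKM under the control label) did not pass in limma. EdgeR called Usp18 lower (adjusted p = 0.0434). Without adjustment, 8 of the 11 had a limma p under 0.05, beside 22.4% of all tested genes. FPKM lay apart with higher values under the knockdown label for 4 of the 11 and with lower values for 4. Over all tested genes these shares were 13.3% and 15.6%. The interferon genes Ifna1, Ifna2, Ifnl2 and Ifnl3 were listed at 0 in all 6 libraries. Ifnb1 reached 0.386 FPKM among the libraries labelled knockdown and 0.620 FPKM among those labelled control.

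Interferon-stimulated genes outside antigen processing moved both ways, with 4 of 32 tested genes higher and 3 lower. Rsad2, which encodes the antiviral enzyme viperin, measured 18.4, 18.6 and 19.7 FPKM in the libraries labelled knockdown, against 8.32, 8.03 and 10.0 FPKM in those labelled control. Rnf213, a large ubiquitin ligase gene, was at 73.7, 74.9 and 76.3 FPKM under the knockdown label, against 97.4, 97.2 and 101.4 FPKM under the control label. Both passed in limma whichever 1 of the 6 libraries was left out, Rsad2 with a log2 fold change of 1.10 (adjusted p = 0.00503) and Rnf213 with -0.40 (adjusted p = 0.00820). Zbp1, a sensor of nucleic acid (59.1 ± 2.66 FPKM under the knockdown label and 41.3 ± 2.54 FPKM under the control label, adjusted p = 0.0106), Oasl1 (10.5, 7.53 and 9.46 FPKM under the knockdown label, 4.39, 4.95 and 5.70 FPKM under the control label, 0.0354) and Gbp2, a guanylate-binding protein gene (26.7 ± 0.794 FPKM under the knockdown label and 21.7 ± 0.721 FPKM under the control label, 0.0403), were the others that were higher. Ifit3 (108.1 ± 4.10 FPKM under the knockdown label and 129.0 ± 1.703 FPKM under the control label, 0.0278) and Oas1a (58.7 ± 1.04 FPKM under the knockdown label and 69.4 ± 2.73 FPKM under the control label, 0.0416) were lower. Whichever 1 library was left out, Oasl1 (adjusted p between 0.0575 and 0.110), Gbp2 (0.0725 to 0.124) and Oas1a (0.0571 to 0.133) did not pass. Zbp1 lost its call without the library labelled knockdown 2 (0.0581), the library labelled control 1 (0.0603) or the library labelled control 2 (0.0539). Ifit3 kept it only without the library labelled knockdown 3 (0.0427), with adjusted p between 0.0639 and 0.106 in the other 5 fits.

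**Figure D5:**
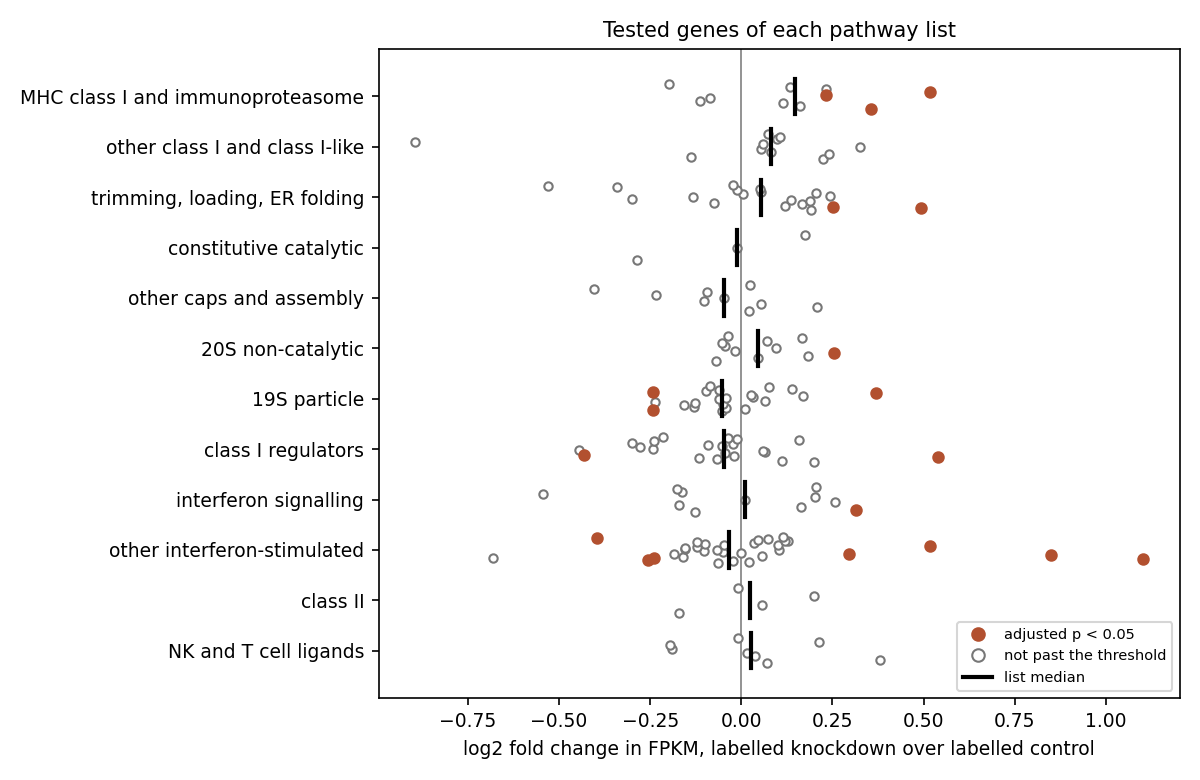
Log2 fold change in FPKM of every tested gene on each list, libraries labelled knockdown over those labelled control, with called genes filled and the median of each list as a bar. The 10 genes described here are in the top row with a median of 0.15, and the other interferon-stimulated genes hold 4 called genes above 0 and 3 below.

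Of class II antigen presentation, the route of professional antigen-presenting cells, 4 genes could be tested. Of these 4 genes 0 were called by limma, 0 by edgeR and 0 were under an unadjusted p of 0.05, and H2-Aa, H2-Eb1, H2-Eb2, H2-DMb1, H2-Oa and H2-Ob were listed at 0 in all 6 libraries. Cd74, the invariant chain, was at 0.887 ± 0.406 FPKM under the knockdown label and 0.956 ± 0.239 FPKM under the control label (SD, n = 3 each), and Lgmn, which encodes a lysosomal protease, was at 74.0 ± 2.34 FPKM under the knockdown label and 74.4 ± 1.09 FPKM under the control label. Ifi30, a lysosomal thiol reductase gene, was at 22.5 ± 2.40 FPKM under the knockdown label and 19.6 ± 1.47 FPKM under the control label. Among 8 tested ligands of natural killer and T cells limma called 0, with 1 under an unadjusted p of 0.05, and edgeR called 1. That was Cd80, a costimulatory ligand gene, with 28.98, 28.2 and 24.4 FPKM in the libraries labelled knockdown, against 23.8, 19.3 and 19.6 FPKM in those labelled control (limma adjusted p = 0.0909, edgeR 0.0227).

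Over the 6 libraries, the mean profile of the 10 genes (log2 of FPKM + 0.1, centred per gene) stood at -0.02, 0.14 and 0.08 in the libraries labelled knockdown, against -0.12, -0.02 and -0.07 in those labelled control. The library labelled knockdown 1 and the library labelled control 2 were close to each other on this scale. H2-K1, Psme2 and Tapbp followed the mean profile most closely, with root mean square differences of 0.0833, 0.0831 and 0.084. H2-D1 followed it least, with 0.372. Each of the 10 is itself part of that mean, which brings it closer. Of the tested genes outside the 10, Cox6b1 (root mean square difference 0.0191), Rnf19a (0.0224), Mphosph10 (0.0235), Eml1 (0.0254) and Sepn1 (0.0264) had the profiles nearest to it. None of these 5 was called (limma adjusted p between 0.125 and 0.377).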

How the data were processed

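Per the submitters' processing notes, the tools were HISAT2 2.0.4, Cuffdiff 2.2.1, Cufflinks and cutadapt; mm9 and mm10 both appear there as builds. Which annotation was used, and whether strand entered the counting, is not given in the sources used here. FPKM values per library were deposited, scaled by transcript length and library size, by the authors in 1 mRNA table and 1 long noncoding RNA table. The deposited count columns hold estimated counts multiplied by a constant of 0.916 to 1.20 per library. Divided by it, 89.4% to 90.4% of mRNA values were within 0.01 of a whole number, and these recovered fragments, rounded, went into edgeR and DESeq2. Per library they totalled 9117649, 8937946 and 7528170 (labelled knockdown 1 to 3) and 9793781, 9304236 and 9303510 (labelled control 1 to 3). Their number limits precision, and the chi-square per gene between replicates was 2.40 to 5.85, so no library was a copy.

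The main test was limma 3.58.1 under R 4.3.3, with a trend of variance on level, applied to log2(FPKM + 0.1) and fitted by group alone, for genes that reached 0.5 FPKM in 3 or more of the 6 libraries. P-values were two-sided with Benjamini-Hochberg adjustment over all 11612 tested genes and a threshold of 0.05. The pseudocount shrinks the fold change of low genes. The rows of 79 repeated symbols were summed. Alternatives were other pseudocounts, filters, scalings and limma options, libraries left out, the replicate number as a block, edgeR 4.0.16 (quasi-likelihood, TMM) and DESeq2 1.42.0. The scripts were tested on simulated data.

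The 10 genes and all lists were chosen with earlier results of these data known. Named are the 10 genes, Myocd, the called genes of each list (filled up to 3 by smallest p), Psmb5, Psmb6, Psmb7, Psmb10, Psme3 and Nlrc5, and the 5 genes of nearest profile; a few others were named after their values were seen, and the values of 1 called list gene are not reported here. Promoters came from RefSeq GRCm38.p6.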

Additional observations from a re-analysis of the deposited data

Results flagged for a closer look

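The noncoding H2-L transcript that overlaps H2-D1 was at 16.0 FPKM in the library labelled knockdown 1 and at 0 in all 3 libraries labelled control, in a table outside the main measurement. It was also at 0 in the other two libraries labelled knockdown, and 33.1 fragments lay behind the value.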

How the results depend on the processing

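Over 22 alternatives the 10 genes kept direction and side of the threshold in 197 values, lost a call in 15, gained one in 3 and reversed in 4; DESeq2 gave no adjusted p for Psmb9. The reversals were all of H2-D1, whose log2 fold change was -0.12 without the library labelled knockdown 2, -0.05 without the library labelled knockdown 3, -0.02 without the library labelled control 1 and -0.0200 without both replicate 3 libraries; it reached 0.51 without the library labelled knockdown 1. None of the 10 was called lower under any alternative. The number called higher was 1 in limma without trend and between 0 and 2 when 1 library was left out (0 without the library labelled knockdown 2 or the library labelled control 2). Over all tested genes, 400 calls became 144 without trend, 624 with library weights, 76 without both replicate 3 libraries, 1150 in edgeR with TMM, 1153 in edgeR with DESeq2 size factors, 1168 in edgeR without a filter, and 719 in DESeq2. Leaving out 1 library gave between 44 and 178. The causes were not tested.

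Same-numbered libraries of the groups correlated at 0.0375, -0.0039 and 0.0999 in their deviations from the group mean. Pairs with unlike numbers lay between -0.0876 and 0.0588. The labels name no batch, and correlations from 3 libraries a group cannot decide if same-numbered libraries shared one. With the replicate block limma called 243 genes and 3 of the 10, and edgeR called 1717 and 4 of the 10, adding H2-K1 (adjusted p = 0.0150).

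Of the 16 called list genes outside the 10, all kept their direction whichever 1 library was left out, and between 2 and 7 kept the call. EdgeR kept 16, and DESeq2 kept the 14 for which it gave an adjusted p. With 3 libraries a group, an exact permutation test of 1 value cannot go below 0.1, and Psmb9 and Nlrc5 rest on low values.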
